A study of Mus musculus with 18 samples.

Results

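Cxcl9, Cxcl10 and Cxcl11 are neighbouring mouse genes that encode the interferon-induced chemokines of the CXC family. They were taken as the gene models whose exons all lie within a 50 kb window of chromosome 5 on mouse build mm9, and 3 of the 27473 gene models in the deposited table met that rule. The rule uses position alone, although the genes were proposed with earlier results of these data known. They were followed in 18 RNA sequencing libraries of differentiated 3T3-L1 adipocytes, a mouse fibroblast line of Swiss origin that forms fat-laden cells after hormonal induction, at passage 15.

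The libraries form 6 groups of 3. In the first arm, mature adipocytes were transduced for 6 days with lentivirus to overexpress Irf3 (labelled Irf3_2D, with 2D left unexplained) or with a green fluorescent protein vector (EGFP). In the second arm, the cells received a short hairpin RNA against Irf3 and then lipopolysaccharide (shIrf3_LPS), a luciferase hairpin and then lipopolysaccharide (shLuc_LPS), the Irf3 hairpin alone (shIrf3) or the luciferase hairpin alone (shLuc). Lipopolysaccharide (LPS), the bacterial ligand of Toll-like receptor 4, then followed for 6 days, as stated for cells with the Irf3 hairpin. No source used here says how long the untreated cells were kept, so effects of LPS and of added culture time cannot be told apart. All groups carry a lentiviral vector, and the labels give no untransduced cells and do not say how many hairpins were used. The labels do not name separate cultures behind the 3 libraries of a group, and the spread that p-values rest on may therefore be technical.

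The CXCL9, CXCL10 and CXCL11 proteins are secreted ligands of a shared receptor, CXCR3, through which they draw activated T cells and natural killer cells into inflamed tissue, adipose tissue included. Interferon gamma induces all of them, and Cxcl10 is also a classic early target of type I interferon signalling, of NF-kB and of IRF3 acting downstream of Toll-like receptors. IRF3 is held inactive in the cytoplasm until kinases such as TBK1 phosphorylate it. It then enters the nucleus and binds interferon-stimulated response elements.

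All of the genes lie on the minus strand. Cxcl9 (gene model uc008ycv.2, mm9 chr5:92750357-92757105) has 4 exons and 2905 bases of exon. Cxcl10 (uc008ycz.1, chr5:92775667-92777880) has 3 exons and 1482 bases, and it starts 18561 bases beyond Cxcl9. Cxcl11 (uc008ydb.1, chr5:92788571-92792303) has 5 exons and 1583 bases, and it lies a further 10690 bases away. Each gene contains 1 exon of exactly 127 bases, and in each the last exon holds most of the exon length, with 88.7% in Cxcl9, 84.6% in Cxcl10 and 79.7% in Cxcl11. The 2 exons at the 5′ end of the Cxcl11 model are separated by only 2 bases. RefSeq lists Cxcl11 as a transcribed pseudogene on the C57BL/6J reference, and C57BL/6 mice are known to carry a frameshift in this gene.

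The table gives no gene symbols, and 0 of its identifiers occur in the name tables used here. The names follow the order of the genes along the chromosome, which is the same in RefSeq on GRCm38, where Cxcl9 also spans 6749 bases, as its mm9 model does. The spans of Cxcl10 are 2214 bases in the mm9 model and 2252 in RefSeq, and those of Cxcl11 are 3733 and 3753. For the same reason the level of Irf3, adipocyte marker genes, the CXCR3 receptor and the interferon pathway genes are not reported here, and neither the labelled overexpression and knockdown nor the cell type was checked.

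The bases upstream of Cxcl10 and Cxcl9 are shown because they hold different sets of the motifs that IRF and NF-kB factors recognise. Both are the 250 bases before the gene's start on the gene's own strand, from RefSeq on GRCm38.p6, with motif matches in capitals. The Cxcl10 sequence is chr5:92348890-92349139 and the Cxcl9 sequence is chr5:92328080-92328329, both on the minus strand.
Cxcl10: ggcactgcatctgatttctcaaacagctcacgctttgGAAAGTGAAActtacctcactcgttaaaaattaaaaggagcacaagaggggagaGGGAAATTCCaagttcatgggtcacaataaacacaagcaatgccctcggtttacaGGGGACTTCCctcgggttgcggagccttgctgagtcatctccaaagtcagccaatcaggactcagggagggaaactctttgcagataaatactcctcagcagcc
Cxcl9: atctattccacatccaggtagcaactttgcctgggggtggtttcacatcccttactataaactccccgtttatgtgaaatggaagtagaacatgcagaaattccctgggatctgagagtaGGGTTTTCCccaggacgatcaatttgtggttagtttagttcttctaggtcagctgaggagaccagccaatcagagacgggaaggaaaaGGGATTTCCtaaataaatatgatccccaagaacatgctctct

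The motifs were searched on both strands as GAAA, any 2 bases and GAAA for the interferon-stimulated response element. NF-kB-type sites were searched as GGG and TTCC with either 3 bases between them, the longer form, or 2, the shorter form. The Cxcl10 sequence holds 1 match to the response element, GAAAGTGAAA, 204 to 213 bases before the gene's start. It also holds 2 matches to the longer NF-kB-type motif, at 150 to 159 and at 95 to 104 bases, the second of which contains the single match to the shorter form. The Cxcl9 sequence holds 2 matches to the shorter NF-kB-type motif, at 122 to 130 and at 34 to 42 bases, and none to the response element or to the longer form. Where a motif has no match, this says only that its letters are absent from this window. Of 32851 RefSeq promoters cut to the same length, 2.98% held the response element, 4.65% the longer and 4.98% the shorter NF-kB-type motif. Both the response element and the longer NF-kB-type motif, as in Cxcl10, were held by 0.11%. No other pair, and no repeated motif as in Cxcl9, was counted over the promoters. A gamma-activated-site (GAS) type motif, TTC, any 3 bases and GAA, was also searched. It had 0 matches in either sequence, and 7.02% of these promoters held it. A match is a description of the letters and no evidence of binding.

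All of the genes were expressed at low levels. Total counts ran from 22143302 to 34368259 per library, and the share of counts on the mitochondrial chromosome ran from 2.17% to 14.2%, with the highest and a low value (2.88%) both in shLuc. Of these totals, Cxcl9 took 13 to 40 counts, Cxcl11 took 7 to 28 and Cxcl10 took 1 to 218. Cxcl10 had at most 22 counts per library in EGFP, 10 in shIrf3 and 8 in shLuc. Its fold changes against these groups therefore rest on few counts. Levels are given as CPM, counts relative to the library's total scaled by TMM factors over the 18 libraries. To set genes side by side they were divided by exon length in kilobases. On that scale the mean of Cxcl10 was 3.37 CPM per kb in Irf3_2D, at or above 43.7% of the 15083 gene models with enough reads, whose median was 5.01. It was at or above 12.9% of them in EGFP, 26.8% in shIrf3_LPS, 21.0% in shLuc_LPS, 8.80% in shIrf3 and 5.49% in shLuc. The means of Cxcl9 stood at or above 11.4% to 16.1% and those of Cxcl11 at or above 14.1% to 21.7% of the gene models across the 6 groups.

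**Figure D1:**
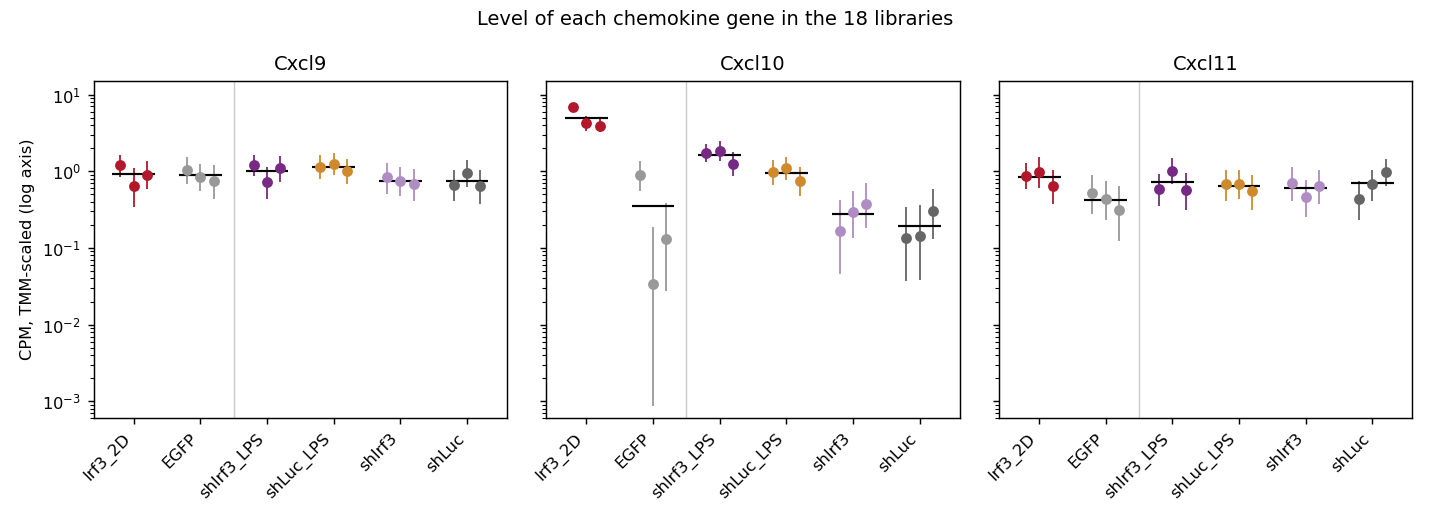
Level of each gene in CPM (log axis) in every library, by group. Points are libraries with a 95% Poisson interval for counting error and bars are group means (n = 3). Cxcl10 spans from 0.0338 to 6.82 CPM, while Cxcl9 stays between 0.637 and 1.26 CPM and Cxcl11 between 0.309 and 1.02 CPM.

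Cxcl10 was the only gene of the 3 to pass the test. It was higher in Irf3_2D than in EGFP by 14.5-fold, and higher with LPS by 4.92-fold in cells with the luciferase hairpin and by 5.85-fold in cells with the Irf3 hairpin. Cxcl9 and Cxcl11 were called in none of the 6 comparisons. A gene is called here at an adjusted p under 0.05 in edgeR's quasi-likelihood test, with Benjamini-Hochberg adjustment over all gene models tested, and all of the 3 genes passed the filter on low counts in both fits. In bulk RNA, fewer cells of a type and less RNA per cell cannot be told apart.

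Whether overexpression of Irf3 changes the transcriptome was addressed by setting Irf3_2D against EGFP. Cxcl10 had 218, 86 and 105 counts in Irf3_2D replicates 1 to 3, against 22, 1 and 3 counts in EGFP replicates 1 to 3. These correspond to 6.82, 4.22 and 3.95 CPM in Irf3_2D, against 0.886, 0.0338 and 0.133 CPM in EGFP. Every Irf3_2D library lay above every EGFP library, and EGFP replicate 1 stood well above the other two EGFP libraries. The log2 fold change was 3.86 ± 0.64 (SE), with a 95% interval from 2.40 to 5.31 and an edgeR adjusted p of 0.0264. In this comparison 1.45% of 13931 gene models were called, 0.811% higher and 0.639% lower.

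That call was lost when any library but EGFP replicate 1 was left out. Without EGFP replicate 1 the log2 fold change was 5.94 (edgeR adjusted p = 0.000547). The call ended without EGFP replicate 2 (3.25, edgeR adjusted p = 0.142) or 3 (3.50, 0.110), and also without Irf3_2D replicate 1 (edgeR adjusted p = 0.0918), 2 (0.0735) or 3 (0.0801). DESeq2 (adjusted p = 0.0235) and limma-voom (0.0187) made the same call, whereas edgeR without a filter on low counts did not (log2 fold change 3.86, adjusted p = 0.0778).

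Cxcl11 showed a smaller difference that was not called. It averaged 0.832 ± 0.175 CPM in Irf3_2D and 0.424 ± 0.108 CPM in EGFP (SD, n = 3 each), from 28, 20 and 17 counts in Irf3_2D against 13, 13 and 7 counts in EGFP. The groups did not overlap, with 0.639 to 0.981 CPM in Irf3_2D and 0.309 to 0.524 CPM in EGFP. The log2 fold change was 0.94, with a 95% interval from 0.18 to 1.71 and an edgeR adjusted p of 0.310. In edgeR, 1512 of all 13931 gene models had an unadjusted p under 0.05 here, and those without overlap were not counted. Cxcl9 had overlapping values of 0.637 to 1.19 CPM in Irf3_2D and 0.751 to 1.05 CPM in EGFP, and its log2 fold change of 0.07 had an interval from -0.63 to 0.77 (edgeR adjusted p = 0.979).

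**Figure D2:**
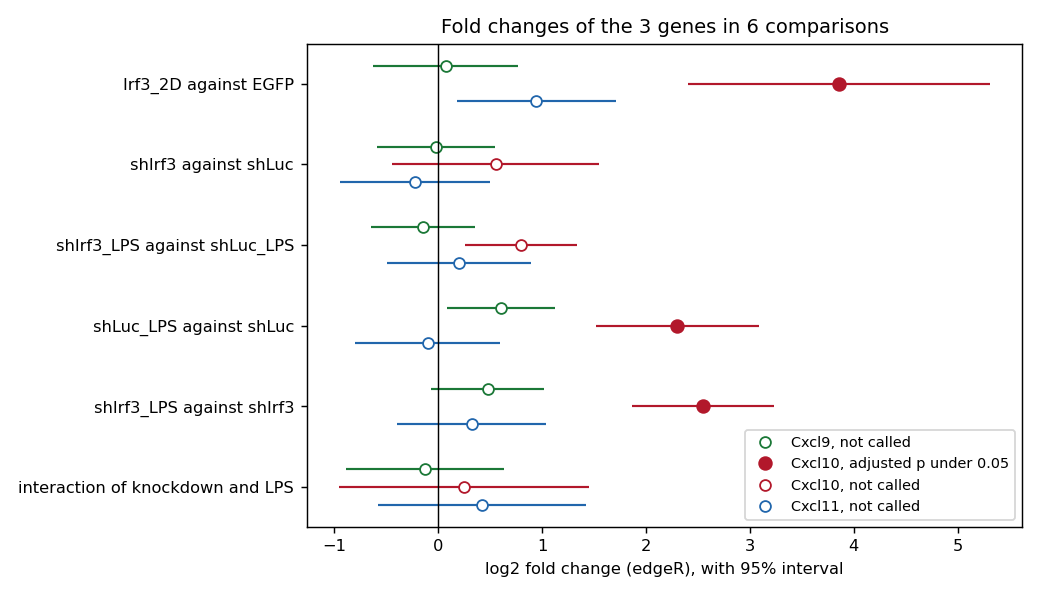
Fitted log2 fold changes (x axis) of the 3 genes in the 6 comparisons (y axis), with 95% intervals. Filled points are called at an edgeR adjusted p under 0.05. Only Cxcl10 has filled points, at 3.86 for Irf3_2D against EGFP, 2.30 for shLuc_LPS against shLuc and 2.55 for shIrf3_LPS against shIrf3.

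The response to LPS was measured separately in cells with each hairpin. In the control cells, Cxcl10 had 29, 35 and 22 counts in shLuc_LPS, against 4, 4 and 8 counts in shLuc. The levels were 0.981, 1.10 and 0.749 CPM in shLuc_LPS, against 0.134, 0.142 and 0.301 CPM in shLuc. No value of a treated library reached down to an untreated one. The log2 fold change was 2.30 ± 0.37 (SE, edgeR adjusted p = 0.000575), where 8.72% of 14970 gene models were called, 4.27% higher and 4.45% lower, or 639 and 666 gene models (823 and 321 when scaled by library totals only). Dropping shLuc replicate 2 made these 982 and 1150, and dropping shLuc_LPS replicate 3 made them 440 and 365.

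Cells with the Irf3 hairpin gave a difference of like size. Cxcl10 had 56, 49 and 31 counts in shIrf3_LPS, against 4, 9 and 10 counts in shIrf3. The levels were 1.73, 1.85 and 1.26 CPM in shIrf3_LPS, against 0.166, 0.295 and 0.378 CPM in shIrf3, again without overlap. The log2 fold change was 2.55 ± 0.32 (SE, edgeR adjusted p = 6.03e-05), with 8.01% of 14970 gene models called, 4.17% higher and 3.84% lower, or 624 and 575 gene models (592 and 313 by library totals only). These became 1090 and 1141 without shLuc replicate 2 and 883 and 983 without shLuc replicate 1, which are outside this comparison, and 383 and 323 without shIrf3 replicate 1, 399 and 356 without shIrf3 replicate 3 and 423 and 324 without shIrf3_LPS replicate 2. Both LPS calls of Cxcl10 held in every alternative run for them, with log2 fold changes from 2.11 to 2.75 in shLuc and from 2.32 to 2.80 in shIrf3. These 2 LPS comparisons share no library.

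The test of the difference between the 2 LPS responses, which is the interaction of hairpin and LPS, gave Cxcl10 a log2 value of 0.25 with a 95% interval from -0.95 to 1.45 (edgeR adjusted p = 0.997). A difference within that interval is not excluded by these counts. Its bounds are approximate, since the SE behind them was 0.57 here, 0.52 in limma-voom and 1.46 without shIrf3 replicate 1. The interaction value was -0.13 for Cxcl9, with an interval from -0.89 to 0.63, and 0.42 for Cxcl11, with an interval from -0.58 to 1.43. None of the 3 genes was called, and over all gene models edgeR called 0% of 14970, with 848 at an unadjusted p under 0.05. The counts were 9 higher and 4 lower in DESeq2 and 0 in limma-voom, and in edgeR 4 higher and 11 lower without shLuc replicate 1 and 14 and 2 without shLuc replicate 2.

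Cxcl9 was slightly higher with LPS in the control cells, without passing the test. It averaged 1.14 ± 0.118 CPM in shLuc_LPS and 0.756 ± 0.175 CPM in shLuc (SD, n = 3 each), and the lowest treated library, at 1.02 CPM, lay above the highest untreated one, at 0.957 CPM. Its log2 fold change was 0.60, with an interval from 0.08 to 1.13 (edgeR adjusted p = 0.162). In edgeR, 3123 of all 14970 gene models had an unadjusted p under 0.05 in this comparison, and those without overlap were not counted. In shIrf3_LPS Cxcl9 averaged 1.01 ± 0.254 CPM and in shIrf3 0.754 ± 0.0741 CPM, and these groups overlapped. This was a log2 fold change of 0.47 with an interval from -0.07 to 1.02 (edgeR adjusted p = 0.303).

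Cxcl11 was not called with LPS under either hairpin, and a difference between Cxcl9 and Cxcl11 was not tested. It averaged 0.638 ± 0.0806 CPM in shLuc_LPS and 0.696 ± 0.272 CPM in shLuc, a log2 fold change of -0.10 with an interval from -0.80 to 0.60 (edgeR adjusted p = 0.915). The averages were 0.726 ± 0.257 CPM in shIrf3_LPS and 0.602 ± 0.128 CPM in shIrf3, a log2 fold change of 0.32 with an interval from -0.39 to 1.04 (edgeR adjusted p = 0.643).

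Whether lowering Irf3 changes these genes was addressed by setting each Irf3 hairpin group against its luciferase control. Without LPS, Cxcl10 averaged 0.280 ± 0.107 CPM in shIrf3 and 0.192 ± 0.0942 CPM in shLuc (SD, n = 3 each), with overlapping values. Its log2 fold change was 0.55, with an interval from -0.44 to 1.55 (edgeR adjusted p = 0.534). Cxcl9 and Cxcl11 had log2 fold changes of -0.02, with an interval from -0.59 to 0.55, and of -0.23, with an interval from -0.95 to 0.50. In this comparison 0 of the 3 genes was called by edgeR or limma-voom, and 0 had an unadjusted p under 0.05 in edgeR or DESeq2. DESeq2 gave an adjusted p to Cxcl9 only, which was not called. Over all gene models, 8.56% of 14970 were called by edgeR, 4.65% higher and 3.91% lower, or 696 and 585 gene models (704 and 345 by library totals only). Leaving out 1 library moved this count widely, to 1623 and 1121 without shLuc replicate 1, 1175 and 888 without shLuc replicate 2, and 376 and 447 without shLuc replicate 3. It was 284 and 226 without shIrf3 replicate 1, 366 and 299 without replicate 2 and 370 and 323 without replicate 3.

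With LPS, Cxcl10 was higher, not lower, in the cells with the Irf3 hairpin, by an amount at the edge of the test. The values were 1.73, 1.85 and 1.26 CPM in shIrf3_LPS, against 0.981, 1.10 and 0.749 CPM in shLuc_LPS, so the lowest knockdown library lay above the highest control library. The log2 fold change was 0.80 ± 0.25 (SE), a 1.74-fold difference with a log2 interval from 0.26 to 1.34, and the edgeR adjusted p of 0.0656 missed the threshold in a comparison where 8.2% of 14970 gene models were called, 4.9% higher and 3.31% lower, or 733 and 495 gene models. These became 1329 and 910 without shLuc replicate 2 and 1185 and 865 without shLuc replicate 1. They were 327 to 386 higher and 198 to 226 lower without shIrf3_LPS replicate 1 or 3 or shLuc_LPS replicate 2 or 3. In edgeR, 3216 of all 14970 gene models had an unadjusted p under 0.05 here, and those without overlap were not counted. Cxcl10 was called when the 6 libraries compared were fitted alone (edgeR adjusted p = 0.0229). It was also called when shLuc replicate 1 (0.0462) or 2 (0.0358), neither of which is in this comparison, was left out of the shared fit. With all 18 libraries in 1 fit the edgeR adjusted p was 0.447, and DESeq2 gave Cxcl10 no adjusted p here. For Cxcl9 the log2 fold change was -0.15, with an interval from -0.65 to 0.35, and for Cxcl11 it was 0.20, with an interval from -0.49 to 0.89.

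**Figure D3:**
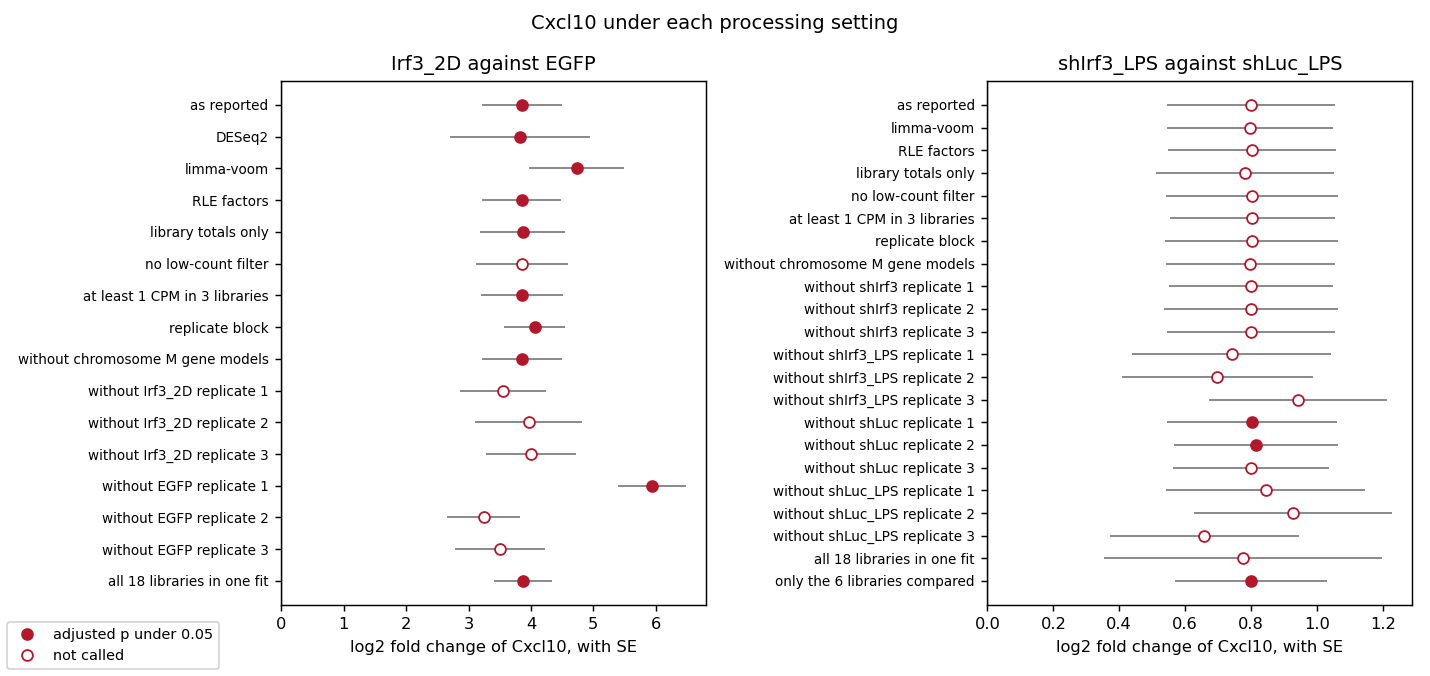
Log2 fold change of Cxcl10 (x axis, with SE) under each processing setting or left-out library (y axis), for Irf3_2D against EGFP and for shIrf3_LPS against shLuc_LPS. Filled points are called at an adjusted p under 0.05. The value stays between 3.25 and 5.94 on the left and between 0.66 and 0.94 on the right, while the call changes.

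Placed in order of their means, the Cxcl10 levels were highest in Irf3_2D at 4.99 ± 1.59 CPM (SD, n = 3 in each group). shIrf3_LPS followed at 1.61 ± 0.314, shLuc_LPS at 0.943 ± 0.178, EGFP at 0.351 ± 0.466, shIrf3 at 0.280 ± 0.107 and shLuc at 0.192 ± 0.0942 CPM. Irf3_2D, shIrf3_LPS and shLuc_LPS did not overlap each other, whereas EGFP, shIrf3 and shLuc overlapped, and EGFP replicate 1, at 0.886 CPM, fell within the range of shLuc_LPS. No test was made between the arms, which differ in vector and may differ in handling. For Cxcl9 the order of means ran from shLuc_LPS at 1.14 to shIrf3 at 0.754 CPM, and for Cxcl11 from Irf3_2D at 0.832 to EGFP at 0.424 CPM, with overlap between all neighbours in the order for each.

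Cxcl10 also changed place within the trio. Of the summed level per kilobase of the 3 genes, Cxcl10 held 79.6% ± 2.81 in Irf3_2D and 22.2% ± 21.8 in EGFP (SD, n = 3 each). The EGFP libraries themselves held 46.4%, 3.86% and 16.5%. Its share was 57.2% ± 3.26 in shIrf3_LPS and 22.8% ± 8.29 in shIrf3, and 44.2% ± 2.01 in shLuc_LPS and 15.3% ± 4.13 in shLuc. Per kilobase, Cxcl10 was the leading gene in all 9 libraries of Irf3_2D, shIrf3_LPS and shLuc_LPS. Cxcl11 held the largest mean share in shIrf3, at 45.6% ± 7.06, and in shLuc, at 51.8% ± 6.79. In EGFP the largest mean share was that of Cxcl9, at 41.6% ± 11.8, although Cxcl10 led in EGFP replicate 1. Without division by exon length, Cxcl10 still led in the mean of Irf3_2D and shIrf3_LPS. In EGFP, shLuc_LPS, shIrf3 and shLuc the leader of the summed counts was Cxcl9, at 56.6%, 42.1%, 46.3% and 47.1%, the gene with the longest exon sequence.

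**Figure D4:**
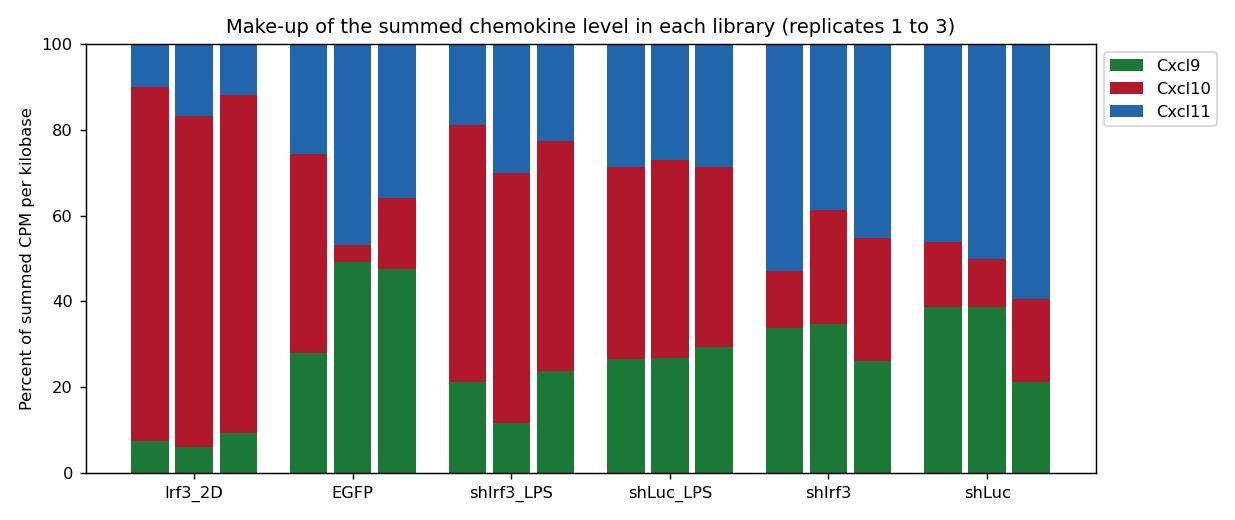
Percent of the summed CPM per kilobase of the 3 genes held by each gene (y axis), in each library by group. Cxcl10 fills 77.2% to 82.7% of the bars of Irf3_2D and 11.2% to 19.5% of those of shLuc.

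The share of neighbouring gene models that were called was read against the share over all gene models. Within 500 kb on either side lay 19 other gene models, of which 14 were tested. For Irf3_2D against EGFP their log2 fold changes ran from -0.62 to 0.68 and edgeR, DESeq2 and limma-voom each called 0, with 1 at an unadjusted p under 0.05 in edgeR. For LPS in shLuc they ran from -0.45 to 0.70 and each of these tools called 0, with 3 at an unadjusted p under 0.05. For LPS in shIrf3 they ran from -0.13 to 0.88, and 1 was called, a 22-exon gene model at chr5:92713036-92739050, with a log2 fold change of 0.24 (edgeR adjusted p = 0.0417). For shIrf3 against shLuc and for shIrf3_LPS against shLuc_LPS, where none of the chemokines was called, 2 of the 14 were called higher and 1 lower in each. With 14 gene models and 1.45% to 8.72% called over the whole table, these counts are too small to set the neighbourhood apart from it.

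A gene model on the opposite strand, uc008ycx.1 (chr5:92760867-92843653, 12 exons), spans Cxcl10 and Cxcl11 without sharing an exon base with either. The library kit does not mark strand, so unspliced reads of that gene within the Cxcl10 or Cxcl11 exons would be counted for the chemokines. Its own exons had 67, 34 and 51 counts in Irf3_2D against 45, 47 and 43 counts in EGFP, a log2 fold change of 0.11 (edgeR adjusted p = 0.948). The values with LPS were -0.45 in shLuc (edgeR adjusted p = 0.337) and -0.13 in shIrf3 (0.822). These exon counts do not measure unspliced reads, and whether such reads add to the chemokine counts was not tested.

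**Figure D5:**
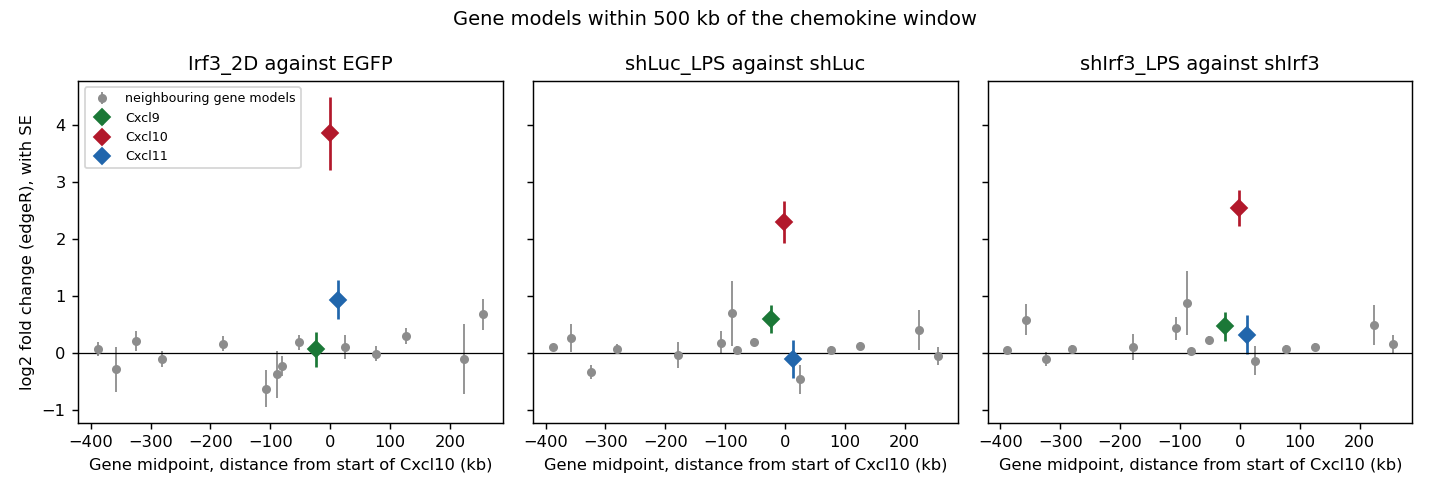
Log2 fold change (y axis, with SE) against the distance of each gene model's midpoint from the start of Cxcl10 in kb (x axis), for Irf3_2D against EGFP, shLuc_LPS against shLuc and shIrf3_LPS against shIrf3. Cxcl10 stands at 3.86, 2.30 and 2.55, and the neighbouring gene models lie between -0.62 and 0.88.

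Of the 13892 gene models tested in both fits, 20 were called higher in Irf3_2D and with LPS under both hairpins, and Cxcl10 was among them. These 20 make up 17.7% of the 113 gene models higher in Irf3_2D. They are 3.13% of the 639 higher with LPS in shLuc and 3.21% of the 624 higher with LPS in shIrf3. Leaving out 1 library moved the 113 to between 0 (without EGFP replicate 3) and 473 (without Irf3_2D replicate 2). The 20 rest on those calls and are not a fixed set. The gene models whose log2 CPM followed Cxcl10 most closely over the 12 libraries of the knockdown and LPS arm were uc007iyk.1 (chr11:54716355-54723889, 5 exons, Pearson's r = 0.975) and uc007eer.2 (chr1:196802569-196864102, 9 exons, r = 0.970), out of 14967. These libraries fall into 4 groups and share one normalization, so r describes likeness only. Since they were chosen in the libraries that hold the LPS comparisons, their differences with LPS are given without a test. The log2 fold changes with LPS were 0.93 in shLuc and 0.86 in shIrf3 for uc007iyk.1, and 0.37 and 0.45 for uc007eer.2. In Irf3_2D against EGFP, where Cxcl10 rose, they had log2 fold changes of -0.26 (edgeR adjusted p = 0.949) and 0.02 (0.988). For Cxcl9 the closest gene models had r = 0.925 and 0.914, and Cxcl11 was under 1 CPM in every group mean and was not matched.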

How the data were processed

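The table deposited by the authors holds whole-number read counts, not normalized, of gene models in 18 libraries. Per the labels' protocols, 70 ng of total RNA per library was depleted with Ribo-Zero, and the TruSeq v2 kit was used. Per the submitters' processing notes, build mm9 is listed with featureCounts 1.4.6, TopHat2 2.0.14, SAMtools 0.1.19 and Picard 2.2.4, without their roles or settings. Groups were taken from the sample titles. All 18 replicate pairs differed beyond sampling noise.

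Counts were tested with edgeR 4.0.16 in R 4.3.3 (filterByExpr, TMM, glmQLFit with robust estimation, glmQLFTest). The overexpression arm (6 libraries) and the knockdown and LPS arm (12 libraries) were fitted apart. The fitting code was first tested on simulated data. Each SE was obtained as the absolute log2 fold change over the root of F. Log2 CPM used a prior count of 2. Counting intervals (95%, exact Poisson) cover counting error only. The named genes are the 3 in the window, the 2 gene models most like each one that reached a group mean of 1 CPM, and called neighbours within 500 kb. For those most like Cxcl9 and for the called neighbour, r or position is given without the identifier. The genes and tests were chosen with earlier results of these data known. The alternatives comprised limma-voom (limma 3.58.1), DESeq2 1.42.0, other scalings and filters, a replicate block, left-out libraries and other sets of libraries in the fit.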

Additional observations from a re-analysis of the deposited data

How the results depend on the processing

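Over the 3 genes, 6 comparisons and all alternatives, 337 values kept direction and side of the threshold, 6 lost the call, 3 gained it and 11 turned sign. All that turned sign were uncalled both ways. With no low-count filter, which adds gene models to the adjustment, the log2 fold change of Cxcl10 in Irf3_2D against EGFP was 3.86 with an edgeR adjusted p of 0.0778, the highest over the alternatives that kept all 6 libraries (lowest 4.60e-05). With only the 6 libraries compared, that of Cxcl10 in shIrf3_LPS against shLuc_LPS was 0.80 and was called. With library totals only, that of Cxcl9 in shIrf3 against shLuc was 0.015, against -0.021 as reported. For these the cause was not tested.

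Leaving out each library in turn gave, for Irf3_2D against EGFP, log2 fold changes from -0.18 to 0.24 for Cxcl9 and from 3.25 to 5.94 for Cxcl10. For shIrf3 against shLuc they ran from -0.12 to 0.17 for Cxcl9 and from -0.47 to 0.095 for Cxcl11. For shIrf3_LPS against shLuc_LPS they ran from -0.32 to 0.038 for Cxcl9, from 0.66 to 0.94 for Cxcl10 and from -0.12 to 0.34 for Cxcl11. For shLuc_LPS against shLuc they ran from -0.35 to 0.22 for Cxcl11. For the interaction they ran from -0.30 to 0.059 for Cxcl9 and from -0.20 to 0.50 for Cxcl10. Calls over all gene models in Irf3_2D against EGFP, 113 higher and 89 lower, became 229 and 239 with DESeq2 and 464 and 478 with all 18 libraries. They became 473 and 548 without Irf3_2D replicate 2, and from 0 and 5 (without EGFP replicate 3) to 41 and 14 without Irf3_2D replicates 1 or 3 or EGFP replicates 2 or 3. With library totals only, the split was 823 higher and 321 lower for shLuc_LPS against shLuc, 592 and 313 for shIrf3_LPS against shIrf3, 704 and 345 for shIrf3 against shLuc, and 491 and 306 for shIrf3_LPS against shLuc_LPS. With all 18 libraries these were 350 and 345, 284 and 337, 202 and 184, and 205 and 173. With only the 6 libraries compared they were 366 and 302, 1323 and 1567, 235 and 201, and 1495 and 1353.

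Same-numbered replicates did not deviate together throughout. In the overexpression arm r was 0.297 for replicate 1, -0.0668 for replicate 2 and -0.258 for replicate 3. In the other arm r ran from -0.0251 to 0.106. These values do not settle whether the numbers pair the libraries. The replicate block changed no call of the 3 genes. Cxcl10 had a log2 fold change of 4.06 in Irf3_2D against EGFP with the block (edgeR adjusted p = 0.00266) and 0.80 in shIrf3_LPS against shLuc_LPS (0.0779). DESeq2 gave no adjusted p in 7 cases and the filter at 1 CPM in 3 libraries removed Cxcl9 or Cxcl11 in 7. In shIrf3 against shLuc fitted alone, Cxcl10 fell below the filter. Mean levels moved by less than 1 SD under every scaling. Leaving out 1 of 3 libraries cannot move a group mean by 1 SD, so that limit says nothing about left-out libraries. The EGFP mean of Cxcl10, with an SD of 0.466, was 0.0832 CPM without replicate 1, against 0.351. Of the shares of the summed level, 12 of 72 moved further, all when raw counts were not divided by exon length. Depth limits all 3 genes (Cxcl10 in EGFP, shIrf3 and shLuc).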
